A study of Rattus norvegicus with 6 samples.

Results

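The genes examined here encode the Slc25 mitochondrial carriers of rat NRK-52E cells. Members were the rows of the deposited count table whose symbol begins with Slc25a and a number, together with Ucp1, Ucp2, Ucp3, Mtch1 and Mtch2. This gave 46 of 18930 genes, with no Ucp1 row among them. NRK-52E is an established epithelial line from normal rat kidney, labelled wild type. RNA was sequenced from 3 Control samples, which received vehicle, and from 3 STZ samples, which were kept in streptozotocin (STZ) at 10 mM for 24 h. STZ is a glucose-linked nitrosourea that alkylates DNA, and the study asked how it injures tubular epithelial cells. The sources used here do not say whether samples of a group were separate cultures, so the p-values measure only the spread between these samples.

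Slc25 proteins form the largest family of solute carriers in the inner mitochondrial membrane. They exchange nucleotides, carboxylates, amino acids, cofactors and ions between the cytosol and the matrix, and a few sit in the outer membrane or in peroxisomes. Tubular epithelium of the kidney relies heavily on mitochondrial ATP, which leaves the matrix through the adenine nucleotide carriers of this family.

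Total counts lay between 10430924 and 15191349 per sample, and TMM factors, which correct for differences in library composition, between 0.988 and 1.02. Member genes took 0.267% to 0.269% of the counts in Control and 0.261% to 0.264% in STZ. The common biological coefficient of variation between replicates was 3.25%. Of 8 kidney epithelial markers, only Krt8 and Cdh1 passed the filter on low counts, and Cdh16, Pax8 and Krt18 had fewer than 10 reads in every sample. The summed epithelial list was 13800 to 14700 normalized counts in Control and 19900 to 20100 in STZ. Krt8 carried this rise, from 14297 ± 506 to 19971 ± 100 (SD, n = 3), whereas Cdh1 was lower, at 32.1 ± 6.52 in Control and 20.4 ± 6.88 in STZ (SD, n = 3), with overlapping groups (log2 fold change -0.69, edgeR adjusted p = 0.03). Of 7 markers of the mature proximal tubule, only Aqp1 passed, and the sum was 123 to 205 in Control and 71.4 to 85.0 in STZ. Leukocyte and endothelial lists summed to at most 35.3 and 9.73 normalized counts, and the fibroblast list, carried by Col1a1 and Pdgfrb, to 587 to 654 in Control and 459 to 544 in STZ. Fewer cells of a kind and less RNA per cell cannot be told apart in such bulk samples, and the part of these shifts in the results was not tested.

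Carrier genes moved in both directions and by small amounts. Of the 46 members, 33 passed the filter and were tested; 8 were higher in STZ (24.2%) and 8 lower (24.2%) at an adjusted p under 0.05 (quasi-likelihood test of edgeR, p adjusted over all genes by Benjamini and Hochberg), and 17 did not pass. Over all 11870 genes tested, 50.9% were called by the same rule, 25.9% higher and 25.1% lower, so the shares of the family lay near the background. None of the 33 had an absolute log2 fold change over 1 together with an adjusted p under 0.05, a pair of thresholds that 3.37% of all genes passed, 2.26% higher and 1.11% lower. That count was also 0 with an unadjusted p under 0.05 and by DESeq2 and limma-voom, while 18 members had an unadjusted p under 0.05 without the fold-change threshold in edgeR. The median log2 fold change was 0.06 in the family and -0.01 over all genes, and the median absolute value 0.13 against 0.19. Groups did not overlap for 8 tested members higher and 8 lower in STZ (48.5% together), beside 28.6% and 27.7% of all genes tested (56.3% together). The count of lower members was 5 of 33 after any one of the 6 samples was left out, when 22.0% to 23.2% of all genes were lower, and 4 of 33 by DESeq2, under which 20.6% of all genes were lower.

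**Figure D1:**
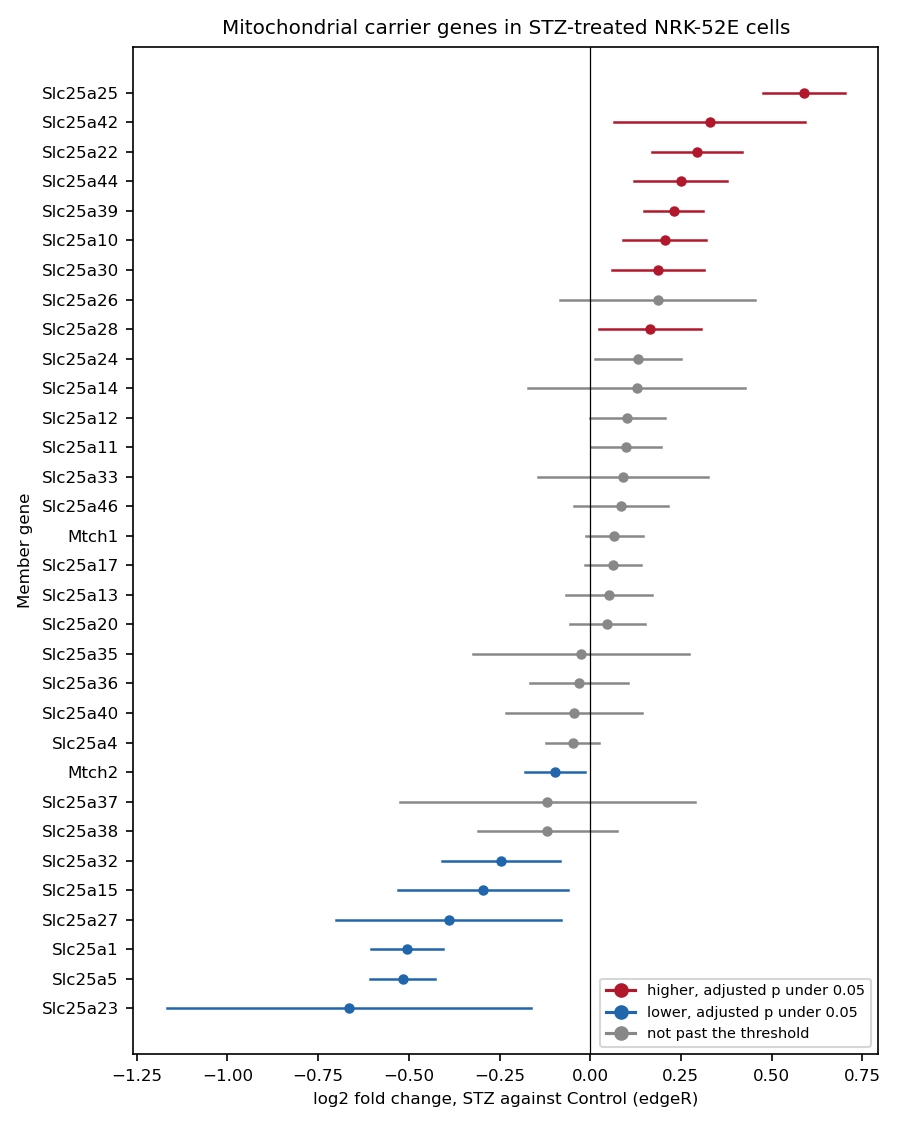
Log2 fold change (STZ against Control, x axis) of 32 of the 33 carrier genes tested (y axis), with points for the estimate, lines for its 95% interval from the edgeR fit, and colour for the call. Estimates ran from -0.67 for Slc25a23, with a wide interval, to 0.59 for Slc25a25, and most intervals lay within 0.5 of zero.

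**Figure D2:**
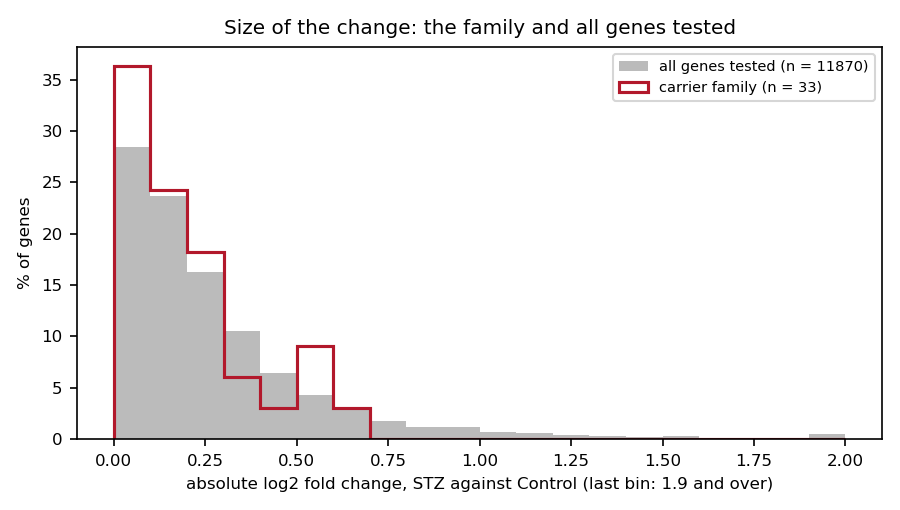
Percentage of genes (y axis) by absolute log2 fold change (x axis, bins of 0.1, the last holding 1.9 and over) for all 11870 genes tested (grey) and the 33 carrier genes (red outline). No carrier gene lay beyond 0.67, and the medians were 0.19 and 0.13.

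Sequences just upstream of the 3 members with the smallest p, Slc25a5, Slc25a25 and Slc25a1, are shown because they are the regulatory windows of the clearest changes. Each window runs from 250 bases before to 50 bases after the annotated start in RefSeq's GRCr8 assembly, on the strand of the gene. The positions are chrX:120897366-120897665 (plus strand) for Slc25a5, chr11:96559804-96560103 (plus strand) for Slc25a1 and chr3:36116532-36116831 (minus strand) for Slc25a25. Capitals mark matches to the motifs given below.
Slc25a5: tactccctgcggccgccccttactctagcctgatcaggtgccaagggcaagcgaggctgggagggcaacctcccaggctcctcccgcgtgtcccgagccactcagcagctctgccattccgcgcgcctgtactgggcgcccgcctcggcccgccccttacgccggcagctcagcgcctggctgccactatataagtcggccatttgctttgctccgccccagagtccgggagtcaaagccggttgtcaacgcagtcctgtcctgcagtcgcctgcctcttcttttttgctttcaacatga
Slc25a1: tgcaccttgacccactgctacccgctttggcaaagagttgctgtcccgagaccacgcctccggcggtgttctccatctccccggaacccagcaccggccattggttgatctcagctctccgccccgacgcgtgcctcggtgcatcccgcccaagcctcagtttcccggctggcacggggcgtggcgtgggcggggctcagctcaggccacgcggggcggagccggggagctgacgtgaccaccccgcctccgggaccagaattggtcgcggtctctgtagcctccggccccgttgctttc
Slc25a25: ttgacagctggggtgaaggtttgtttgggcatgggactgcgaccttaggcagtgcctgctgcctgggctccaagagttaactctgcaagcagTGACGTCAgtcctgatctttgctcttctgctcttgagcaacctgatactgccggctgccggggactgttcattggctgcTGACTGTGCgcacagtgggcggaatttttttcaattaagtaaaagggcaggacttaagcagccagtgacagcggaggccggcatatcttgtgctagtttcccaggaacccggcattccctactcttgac

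Windows were found for 38 of the 46 members, in 40 entries, since 2 members had more than 1 start. Both strands were searched for the NRF1 motif, the sterol response element TCACNCCAC, the antioxidant response element TGACNNNGC, the amino acid response element TGATGCAA and, added after the windows had been read, the cAMP response element TGACGTCA. No matches to different motifs overlapped within a member's window. Slc25a25 held a cAMP response element beginning at position -158 from the start site and an antioxidant response element beginning at position -79. These motifs occurred in 1.83% and 12.1% of all 33469 windows, and in 2 and 5 of the 40 entries of the family. The NRF1 motif was found in 2 entries (4.25% of all windows), the sterol response element in 3 (1.12%) and the amino acid response element in 0 (0.795%). The windows of Slc25a5 and Slc25a1 held none of the 5 motifs. A match describes the letters of the window only.

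Among the adenine nucleotide and phosphate carriers, Slc25a25 rose and Slc25a5 and Slc25a23 fell, while Slc25a4 and Slc25a24 did not pass the test. Of the 5 tested, 1 was therefore higher and 2 lower. The counts of this group and of those below are small, and stand beside 25.9% higher and 25.1% lower over all genes tested. No row carried the symbol Slc25a3, a phosphate carrier, so that gene is not covered here. Slc25a25 encodes a calcium-regulated carrier that exchanges ATP-Mg for phosphate. It had 587, 625 and 604 normalized counts in Control and 888, 966 and 882 in STZ. Every STZ sample lay above every Control sample, with the widest rise of the family, 50.3% (log2 fold change 0.59, standard error 0.06, edgeR adjusted p = 6.8e-12). Slc25a5 encodes ANT2, the ADP/ATP translocase typical of proliferating cells. Normalized counts of Slc25a5 were 2312, 2471 and 2489 in Control and 1798, 1633 and 1652 in STZ. The groups were well apart, and the gene fell by 30.1% (log2 fold change -0.52, standard error 0.04, edgeR adjusted p = 3.2e-13). Slc25a4 encodes ANT1, the translocase best known from heart and muscle. It had 7346 ± 224 normalized counts in Control (SD, n = 3) and 7107 ± 186 in STZ (SD, n = 3), and its log2 fold change was -0.05 (95% interval -0.121 to 0.025). Slc25a23, another ATP-Mg and phosphate carrier, had 51.6, 31.7 and 33.0 normalized counts in Control and 19.9, 31.4 and 22.4 in STZ. One Control sample was well above the rest and the groups nearly touched. The log2 fold change of Slc25a23 was -0.67 (standard error 0.25, edgeR adjusted p = 0.023), and it did not pass without Control replicate 1 (-0.42, adjusted p = 0.22), STZ replicate 1 (adjusted p = 0.11) or STZ replicate 3 (adjusted p = 0.09), or by DESeq2 (adjusted p = 0.086). Its paralog Slc25a24 had a log2 fold change of 0.13 (edgeR adjusted p = 0.058), which passed without Control replicate 3 (adjusted p = 0.031) or STZ replicate 2 (adjusted p = 0.017). GRCr8 lists 9 pseudogenes named after Slc25a5 and 1 after Slc25a4, and only uniquely mapped reads were counted, so reads shared with such copies are missing from these values to an unknown degree. The span of Slc25a25 overlaps Naif1 there, and whether counting used strand is not given in the sources used here.

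**Figure D3:**
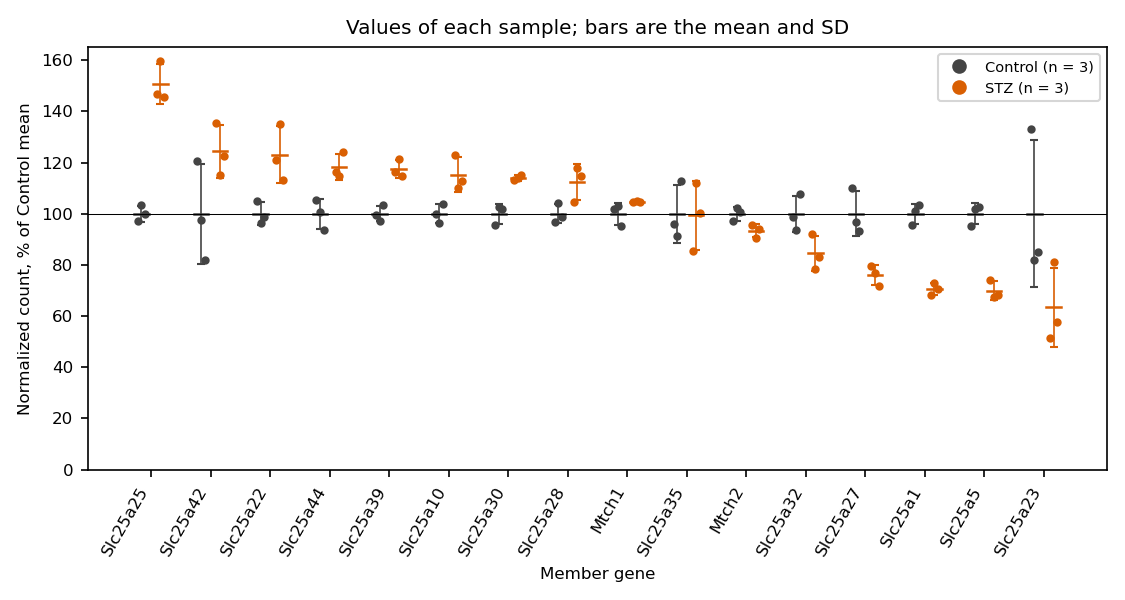
Normalized counts as a percentage of the gene's Control mean (y axis) for 16 carrier genes named by rule (x axis, ordered by log2 fold change), with 1 point per sample, a bar for the mean and whiskers for the SD (n = 3). Slc25a25 stood at the top, Slc25a1 and Slc25a5 had tight and separate groups, and Slc25a23 had the widest spread in Control.

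The carboxylate carriers split as well. Slc25a1, the citrate carrier that supplies the cytosol with the carbon for fatty acid and sterol synthesis, fell; Slc25a10, which exchanges malate or succinate for phosphate, rose. Slc25a1 had 1230, 1301 and 1329 normalized counts in Control and 880, 938 and 907 in STZ. The STZ samples were all lower, and the gene fell by 29.5% (log2 fold change -0.51, standard error 0.05, edgeR adjusted p = 1.2e-11). Normalized counts of Slc25a10 were 677, 655 and 705 in Control and 834, 746 and 767 in STZ, again without overlap. The rise of Slc25a10 was 15.2% (log2 fold change 0.21, standard error 0.06, edgeR adjusted p = 0.0025). Slc25a11, the oxoglutarate and malate carrier, had a log2 fold change of 0.10 (edgeR adjusted p = 0.083), and passed only when STZ replicate 3 was left out (0.13, adjusted p = 0.047). Slc25a21, which carries oxoadipate, had 3 reads in one Control sample and 0 in the other samples.

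Enzymes that work beside these carriers were read from a list of 11 genes of citrate export and the malate-aspartate shuttle, of which 10 were tested. Of these, 5 were higher (50%) and 2 lower (20%), beside 25.9% and 25.1% of all genes tested. The lower ones were Acly and Acaca, the first steps from cytosolic citrate towards fatty acids. Acly, which cleaves citrate to cytosolic acetyl-CoA, had 5472, 5496 and 5922 normalized counts in Control and 3311, 3388 and 3128 in STZ, with the groups far apart and a log2 fold change of -0.78 (standard error 0.04, edgeR adjusted p = 1.5e-20). Acaca, which carboxylates acetyl-CoA for fatty acid synthesis, had 2152, 2101 and 2210 in Control and 1240, 1368 and 1324 in STZ, again without overlap. The log2 fold change of Acaca was -0.72 (standard error 0.05, edgeR adjusted p = 1.3e-17). Got1 and Mdh1, the cytosolic transaminase and malate dehydrogenase of the shuttle, were named after their values were seen. Their log2 fold changes were 0.53 (edgeR adjusted p = 9.9e-14) and 0.12 (edgeR adjusted p = 0.01). The shuttle carriers Slc25a12 and Slc25a13, which exchange aspartate for glutamate, had log2 fold changes of 0.10 (95% interval -0.00 to 0.21) and 0.05 (95% interval -0.07 to 0.17), and neither passed. Slc25a12 did pass when Control replicate 1 was left out (0.14, edgeR adjusted p = 0.039).

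**Figure D4:**
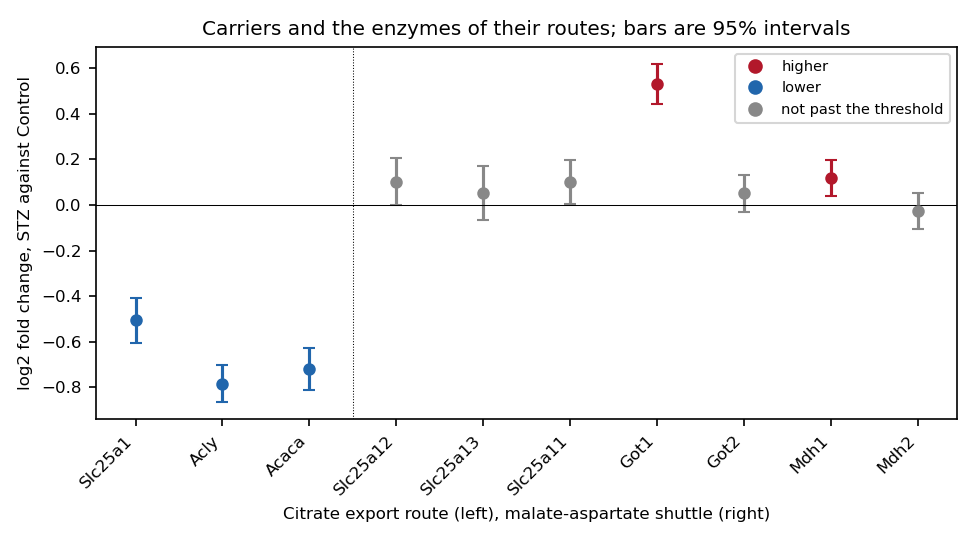
Log2 fold change (STZ against Control, y axis) with 95% intervals for Slc25a1 and the enzymes Acly and Acaca (left of the dotted line), and for the carriers and enzymes of the malate-aspartate shuttle (right). The 3 genes on the left lay between -0.78 and -0.51, while on the right only Got1 and Mdh1 passed the test.

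Of the amino acid and carnitine carriers, 7 were tested, 2 were higher and 1 was lower. Slc25a22, which carries glutamate with a proton, had 654, 600 and 615 normalized counts in Control and 753, 842 and 705 in STZ. Each STZ sample exceeded each Control sample, and the rise was 22.6% (log2 fold change 0.29, standard error 0.06, edgeR adjusted p = 8.9e-05). Slc25a44, a carrier of branched-chain amino acids, had 513, 489 and 456 in Control and 566, 557 and 603 in STZ, on the same scale. These groups did not overlap either, with a log2 fold change of 0.25 (standard error 0.06, edgeR adjusted p = 0.001). Slc25a15, the ornithine carrier of the urea cycle, had a log2 fold change of -0.30 (edgeR adjusted p = 0.031). Its call was lost by DESeq2 (adjusted p = 0.1) and without Control replicate 1, 2 or 3 or STZ replicate 1 (adjusted p = 0.072, 0.055, 0.052 and 0.14). The remaining tested carriers, Slc25a12, Slc25a13, Slc25a20 for acylcarnitines and Slc25a38 for glycine, had log2 fold changes between -0.12 and 0.10. The span of Slc25a22 overlaps Cend1 in GRCr8.

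Cofactor and nucleotide carriers gave 1 higher and 2 lower members of 7 tested. Slc25a32, which carries folate and FAD, had 334, 318 and 365 normalized counts in Control and 312, 266 and 281 in STZ. The gap between the groups was small, and the log2 fold change of -0.25 (standard error 0.08, edgeR adjusted p = 0.01) no longer passed without Control replicate 3 (-0.19, adjusted p = 0.086) or STZ replicate 2 (-0.20, adjusted p = 0.062). Slc25a42, a carrier of coenzyme A, had 130, 105 and 88.3 in Control and 146, 124 and 132 in STZ. Its groups overlapped, and the log2 fold change of 0.33 (standard error 0.13, edgeR adjusted p = 0.033) was not called with library size only (adjusted p = 0.056), by DESeq2 (adjusted p = 0.11) or without Control replicate 2 (adjusted p = 0.085), Control replicate 3 (0.19, adjusted p = 0.26), STZ replicate 1 (adjusted p = 0.14) or STZ replicate 3 (adjusted p = 0.063). The peroxisomal carrier Slc25a17, the S-adenosylmethionine carrier Slc25a26 and the pyrimidine nucleotide carriers Slc25a33 and Slc25a36 did not pass, with log2 fold changes from -0.03 to 0.19. A further NAD carrier, Slc25a51, is listed in the table under its older symbol Mcart1 and so was not a member by rule. It had 1036 ± 28.7 normalized counts in Control and 986 ± 53.0 in STZ (SD, n = 3), a log2 fold change of -0.07 (edgeR adjusted p = 0.25).

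All 4 iron and glutathione carriers were tested, and 2 were higher. Slc25a39, which imports glutathione into the matrix, had 2452, 2397 and 2544 normalized counts in Control and 2863, 2991 and 2829 in STZ. The samples of the groups were clearly separate, with a rise of 17.3% (log2 fold change 0.23, standard error 0.04, edgeR adjusted p = 6.5e-06). GRCr8 lists 8 pseudogenes named after Slc25a39. Slc25a28, or mitoferrin 2, which imports iron, had 381, 410 and 389 in Control and 411, 463 and 452 in STZ. The lowest STZ sample barely exceeded the highest Control sample, and the log2 fold change was 0.17 (standard error 0.07, edgeR adjusted p = 0.044). This call held under only 6 of 14 alternative settings, and those that ended it were no filter (adjusted p = 0.067), library size only (adjusted p = 0.11), the upper quartile (adjusted p = 0.075) and DESeq2 (adjusted p = 0.13), as well as the omission of Control replicate 1 or 3 or STZ replicate 2 or 3 (adjusted p = 0.13, 0.098, 0.15 and 0.13). Slc25a37, or mitoferrin 1, and Slc25a40, the paralog of Slc25a39, had log2 fold changes of -0.12 and -0.04 and did not pass.

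The uncoupling protein group was represented by 3 tested relatives, of which 1 was higher and 1 lower. Uncoupling proteins let protons or anions leak across the inner membrane. Ucp2 had 2 to 5 reads in any sample and Ucp3 at most 1, so neither was tested. Slc25a30, a relative first described in kidney, had 453, 487 and 483 normalized counts in Control and 536, 540 and 546 in STZ. The STZ samples were tightly grouped above Control, with a log2 fold change of 0.19 (standard error 0.06, edgeR adjusted p = 0.011), and the call was lost when Control replicate 1 was left out (0.16, adjusted p = 0.064). Slc25a27, also named UCP4 and best known from brain, had 92.7, 81.5 and 78.6 in Control and 67.0, 64.9 and 60.6 in STZ. These did not overlap, but at such counts the log2 fold change of -0.39 (standard error 0.15, edgeR adjusted p = 0.031) did not pass by DESeq2 (adjusted p = 0.1) or without Control replicate 1 or 2 or STZ replicate 2 or 3 (adjusted p = 0.13, 0.05, 0.056 and 0.1). Slc25a14, or UCP5, had a log2 fold change of 0.13 (95% interval -0.17 to 0.43).

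Members of the outer membrane differed little between the groups. Mtch2, which inserts proteins into the outer membrane, had 2279, 2402 and 2358 normalized counts in Control and 2240, 2126 and 2208 in STZ. The values lay side by side without overlap, and the log2 fold change was -0.10 (standard error 0.04, edgeR adjusted p = 0.044). Its call was lost by DESeq2 (adjusted p = 0.071), with no filter (adjusted p = 0.062) and without Control replicate 2 or 3 or STZ replicate 1, 2 or 3 (adjusted p = 0.14, 0.073, 0.056, 0.18 and 0.077). Mtch1, its paralog, had 3300, 3346 and 3088 in Control and 3394, 3403 and 3388 in STZ. Those of STZ were all slightly higher, but the log2 fold change of 0.07 did not pass (edgeR adjusted p = 0.16). Slc25a46, which acts in mitochondrial fission and lipid transfer, had a log2 fold change of 0.08 (edgeR adjusted p = 0.28). Slc25a35, the only tested member with no settled substrate, had 83.3, 79.2 and 98.0 in Control and 74.2, 97.3 and 87.2 in STZ, with overlapping groups and a log2 fold change of -0.03 (edgeR adjusted p = 0.9).

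Related carriers were then compared within each sample, because a ratio of 2 genes in the same library does not depend on how libraries are scaled. Gene length was not taken into account, so only the shift of a ratio is read, not which gene was more abundant. Of 9 pairs fixed, 8 had both members tested, and the ratio of 4 did not overlap between groups. Among single genes tested, 56.3% did not overlap, and the share over other pairs of genes was not computed. With 3 samples against 3 the smallest p of the exact two-sided permutation test is 0.1, so no pair could pass, and 0.1 adjusted over 8 pairs became 0.2. The ratio of Slc25a4 to Slc25a5 reads was 3.07, 3.02 and 3 in Control and 3.85, 4.36 and 4.41 in STZ. It rose in log2 terms by 0.47, from 1.60 ± 0.02 to 2.07 ± 0.11 (SD, n = 3, exact permutation p = 0.1). For Slc25a39 to Slc25a40 the ratio was 12, 11.6 and 11.4 in Control and 13.2, 14.9 and 14.3 in STZ, a log2 difference of 0.27 (exact permutation p = 0.1). For Mtch1 to Mtch2 it was 1.45, 1.39 and 1.31 in Control and 1.51, 1.60 and 1.53 in STZ, a log2 difference of 0.17 (exact permutation p = 0.1). For Slc25a24 to Slc25a23 the log2 difference was 0.78 with Control samples from 12 to 21.1 and STZ samples from 21.4 to 37.9 (exact permutation p = 0.1), and it was 0.51 without Control replicate 1. The other 4 pairs overlapped, namely Slc25a12 to Slc25a13, Slc25a37 to Slc25a28, Slc25a33 to Slc25a36 and Slc25a14 to Slc25a30, with log2 differences between -0.27 and 0.10 and exact permutation p from 0.3 to 1.

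**Figure D5:**
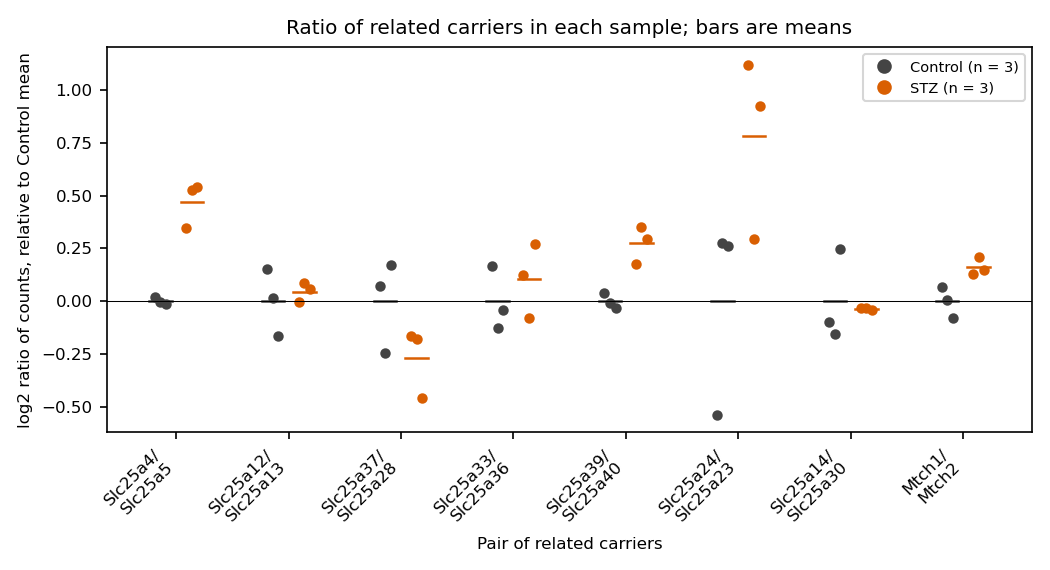
Log2 ratio of read counts of related carriers (y axis, relative to the Control mean of the pair) for 8 pairs (x axis), with 1 point per sample and bars for the means (n = 3 per group). The Slc25a4 to Slc25a5 ratio was tight in Control and higher in all STZ samples, while 4 of the pairs overlapped.

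The 13 members not tested reached 10 reads at most in a single sample and 32 over the 6 samples. Of these, Slc25a18, Slc25a31, Slc25a43, Slc25a53 and Ucp3 had 0 reads in the 3 Control samples and at most 2 in any STZ sample. A count of 0 in a library allows an expected count of up to 3 reads, or 0.236 to 0.288 CPM in the Control libraries. Expression below that is therefore not excluded by any single Control library. Slc25a6, Slc25a21, Slc25a29, Slc25a45, Slc25a47, Slc25a48, Slc25a52 and Ucp2 had between 0 and 10 reads, and no fold change is given for any of the 13.

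Carriers reach the inner membrane by a route of their own, through the TOM complex, small chaperones of the intermembrane space and the TIM22 complex. Of 14 symbols listed for this route, 11 were in the table and tested, with a median log2 fold change of 0.05. Among them, 2 were higher (18.2%) and 2 lower (18.2%), beside 25.9% and 25.1% of all genes tested. Timm8b, a small intermembrane space chaperone, had 563, 569 and 578 normalized counts in Control and 746, 751 and 742 in STZ. The difference far exceeded the spread, with a log2 fold change of 0.39 (standard error 0.06, edgeR adjusted p = 2e-07). Tomm70, the receptor that recognises carriers at the outer membrane, had 696, 716 and 706 in Control and 750, 821 and 787 in STZ, a log2 fold change of 0.15 (standard error 0.06, edgeR adjusted p = 0.018).

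Passages of the mitochondrial membranes outside the family gave 4 higher (21.1%) and 5 lower (26.3%) genes of 19 tested, with a median log2 fold change of -0.08. Over all genes tested, 25.9% were higher and 25.1% lower. The list holds pyruvate carriers, sideroflexins, porins, ATP-binding cassette exporters and calcium transport genes. Letm1, a cation exchanger of the inner membrane, had 1571, 1594 and 1668 normalized counts in Control and 1994, 2008 and 2142 in STZ, a log2 fold change of 0.35 (standard error 0.04, edgeR adjusted p = 9.2e-09). Its groups were far apart. No gene tested in the 3 lists of related genes had an absolute log2 fold change over 1.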

How the data were processed

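Per the labels and the methods of the study, the authors prepared stranded mRNA libraries, aligned the reads with STAR 2.7.10a against Rnor6, ran featureCounts on the unique alignments and deposited the resulting raw counts, which are not normalized. The strand setting is not given in the sources used here.

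From these counts, TMM scaling, filterByExpr (minimum count 10, minimum total 15) and the quasi-likelihood test were run on the whole table with edgeR 4.0.16 (R 4.3.3), and p-values were adjusted by Benjamini and Hochberg over 11870 genes. The study's thresholds, an adjusted p under 0.05 together with an absolute log2 fold change over 1, gave the count past both. Calls of higher or lower use the adjusted p alone. Normalized counts are counts divided by the effective library size and multiplied by its mean. Standard errors were derived from the F statistic (the size of the log2 fold change over the root of F), and the 95% intervals use them. Alternatives used DESeq2 1.42.0 and limma 3.58.1. On simulated counts for 11870 genes, the STZ against Control test recovered 188 of 200 changed genes with 15 false calls. These totals pool all sizes of difference put in, each larger than most absolute log2 fold changes of the family. Every simulated gene had the same dispersion, and a far smaller share of genes was changed than was called in the data. The totals therefore give no recovery rate for most calls of the family. Recovery at sizes as small as the family's median absolute log2 fold change, 0.13, was not tested.

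The members and lists were chosen with earlier results of these data known. Genes given with every sample's value are the 2 smallest p in each role group and the 5 largest rises and falls among members past the threshold. In the lists of related genes, the 2 smallest p are named. Single values of a few genes that these rules take are not reported here, in text or plots, but they stay in all counts and medians. Of the table's rows, 2871 carry only an Ensembl identifier and were not searched for members, and 0 member rows share a name. Replicates of a group were not copies of one library: chi-square values, per degree of freedom, were 1.85 to 2.56 between them. Promoter windows and overlapping genes are from RefSeq (GRCr8), and no coordinates of the authors' build are given.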

Additional observations from a re-analysis of the deposited data

How the results depend on the processing

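Over 14 alternative settings, the 33 tested members were refitted 462 times, and 416 refits kept direction and side of the threshold, 38 were weaker, 5 stronger and 3 reversed. Of the 16 members called, 8 passed under every setting, among them Slc25a10, Slc25a22, Slc25a25, Slc25a39 and Slc25a44 (higher) and Slc25a1 and Slc25a5 (lower). No member changed direction under the 3 other scalings. The number of lower members, 8, was 4 by DESeq2 (20.6% of all genes) and 5 after any single omission (22.0% to 23.2% of all genes). That of higher members, 8, was 6 to 9 over the settings (16.3% to 26.5% of all genes) and 7 to 8 among the omissions (23.2% to 23.8% of all genes). Fewer samples enter each omission; for DESeq2 the cause was not tested. The number past both thresholds was 0 in every setting. The median log2 fold change, 0.06, was 0.029 with library size only, where the median of all genes was -0.04, and 0.041 to 0.085 when a sample was omitted.

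Among members, reversals occurred only in those that did not pass. No pair could pass, so reversals of pairs cannot be read in that way. The log2 fold change of Slc25a35 was 0.077 without Control replicate 3, 0.074 without STZ replicate 1 and -0.109 at the lowest omission, and that of Slc25a36 ran from -0.068 to 0.022, the latter without Control replicate 3. Among the omissions, the Slc25a12 to Slc25a13 ratio ran from -0.038 to 0.118 and the Slc25a14 to Slc25a30 ratio from -0.112 to 0.090, both reversed without Control replicate 3, and the other pairs kept their direction.

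Same-numbered Control and STZ samples had deviations correlated at 0.0338, -0.0335 and 0.105 across 10341 genes, so the numbers do not pair them. In the fit with the replicate block, 9 members were higher and 8 lower, since Slc25a24 passed (0.13, edgeR adjusted p = 0.048), and the median was 0.06. The mean difference of a ratio is the same with or without the block, so the block cannot change its direction. The 4 called members under 200 normalized counts, Slc25a15, Slc25a23, Slc25a27 and Slc25a42, had standard errors from 0.12 to 0.25, and passed under 8 to 10 of the 14 settings. Slc25a28 and Mtch2, with higher counts, passed under 6 and 7.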
